A study of Homo sapiens with 6 samples.

Results

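Keratins, vimentin and lamins are the proteins of intermediate filaments, and 7 of their genes were described here out of 30741 genes in the expression table: the keratin genes KRT18, KRT8 and KRT10, the vimentin gene VIM, and the lamin genes LMNA, LMNB1 and LMNB2. The rows were found by gene symbol. The genes were chosen by their FPKM values in these same libraries, with their differences between TSN and DMSO already known, so those differences are given as a description, without a test.

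RNA was sequenced from MOLM-13, a human acute myeloid leukaemia line that grows in suspension and carries a KMT2A fusion and a duplication within FLT3. Cells were kept for 48 h in 20 nM TSN, which the series title names as toosendanin, a triterpenoid of the tree Melia toosendan, or in the solvent DMSO. Each group held 3 libraries, called biological replicates by the submitters, and both groups come from the same single cell line, at 1 dose and 1 time. Groups were taken from the sample titles, since the treatment field reads DMSO for all 6 samples. The 3 table columns without TSN in their name were assigned to DMSO as the only other group, and every difference below depends on that assignment.

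Intermediate filaments form a mesh that gives cells and nuclei mechanical strength. Type I keratins such as KRT18 and KRT10 pair with type II keratins such as KRT8, whereas vimentin assembles with itself and is the usual cytoplasmic filament of blood cells. Lamins line the inside of the nuclear envelope: LMNA encodes the A-type lamins, which stiffen the nucleus and are low in many blood cells, and LMNB1 and LMNB2 encode the B-type lamins, which stay anchored in the membrane by a lipid tail.

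Levels are in FPKM (fragments counted on a gene, divided by its length and by the size of the library), a relative unit that would not show a change in total RNA per cell. In this bulk RNA, fewer cells of a type and less RNA per cell cannot be told apart. Depth was estimated at 37135950 to 50450000 fragments per library. The library TSN 3 stood apart, where the median log2(FPKM + 1) of the tested genes was 2.97, below the range of 3.30 to 3.46 over the other 5. Of 13 myeloid markers, 11 reached 1 FPKM in at least 3 libraries, among them CD33 at 8.867 to 10.06 FPKM and MPO at 1989 to 3668 FPKM, while KIT did not exceed 0.0196 FPKM.

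The 7 genes differed widely in level, and all 7 passed the filter for testing, a level of 1 FPKM or more in at least 3 libraries. VIM and LMNB1 ranked 396 and 410 by mean DMSO level among the 11440 genes that passed. LMNA ranked 1326 and LMNB2 1789, whereas KRT10, KRT18 and KRT8 ranked 5883, 7170 and 8689. In DMSO the order per length was VIM (121.7 ± 10.5 FPKM) and LMNB1 (119.2 ± 11.1), which did not differ beyond their spread, then LMNA (49.2 ± 6.22), LMNB2 (38.89 ± 0.707), KRT10 (8.886 ± 2.51), KRT18 (5.581 ± 0.202) and KRT8 (2.971 ± 0.417; SD, n = 3 throughout). LMNA lay above LMNB2 and KRT18 above KRT8 in every DMSO library, and KRT10 lay above KRT18 in each. In TSN the order became VIM, then LMNB1 and LMNA, whose ranges overlapped, then LMNB2, KRT18, KRT10 and KRT8. LMNB2 at 26.15 to 40.54 FPKM and KRT18 at 13.95 to 30.92 FPKM overlapped as well. KRT18 lay above KRT10 in all 3 TSN libraries.

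**Figure D1:**
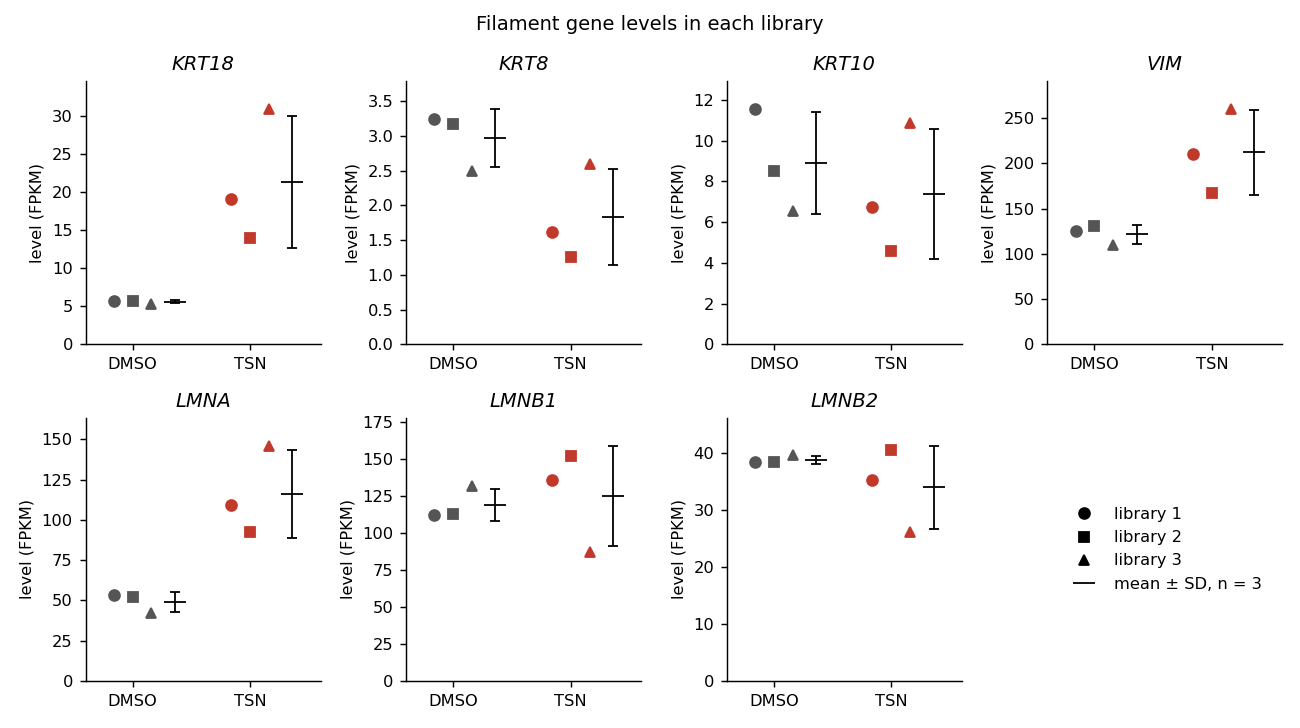
Level of each gene in FPKM (vertical axes, each from 0) in the 3 DMSO and 3 TSN libraries; symbols are libraries and bars are mean ± SD. KRT18, VIM and LMNA are higher in all TSN libraries than in any DMSO library, and the other 4 genes overlap between groups.

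KRT18, VIM and LMNA were higher in every TSN library than in any DMSO library, and the other 4 genes overlapped between groups. Of all tested genes, 39.2% did not overlap between groups, 16.2% with TSN higher. In the limma fit over all genes, 14.9% passed an adjusted p of 0.05, 7.71% higher and 7.2% lower. KRT18, VIM and LMNA were among those higher, and since this contrast was used to choose them, nothing is read from that count.

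KRT18, a keratin of simple epithelia, differed most. It stood at 5.725, 5.669 and 5.35 FPKM in DMSO 1, 2 and 3 and at 19.13, 13.95 and 30.92 FPKM in TSN 1, 2 and 3. The DMSO libraries were nearly level, every TSN library was higher, and the TSN libraries spread widely among themselves. The mean was 3.82 times the DMSO mean, and the log2 fold change, on the log2(FPKM + 1) scale that understates the change of low genes, was 1.69 ± 0.28 (SE of the limma fit, n = 3 per group). Its SD on that scale was 0.04 in DMSO and 0.55 in TSN, beside medians over all tested genes of 0.15 and 0.32. KRT18 (ENSG00000111057) lies on chromosome 12 from 52948871 to 52952901 on the plus strand of GRCh38.

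KRT8, the keratin that pairs with KRT18, did not follow it. Its levels were 3.25, 3.171 and 2.492 FPKM in DMSO and 1.622, 1.262 and 2.6 FPKM in TSN. TSN 1 and TSN 2 lay below all DMSO libraries, but TSN 3 lay above DMSO 3, so the groups overlapped. The mean ratio was 0.62 and the log2 fold change -0.51 ± 0.20 (SE). KRT8 was the lowest of the 7 genes, at an estimated 56 to 133 fragments per kb of exon, against 199 to 1171 for KRT18. KRT8 (ENSG00000170421, chromosome 12, 52897187 to 52949954, minus strand) overlaps KRT18 on the opposite strand, with 7.6% of the exon bases of KRT8 and 16.3% of those of KRT18 shared. Whether counting used strand is not given in the sources, so fragments in the shared bases cannot be assigned to 1 of them.

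The balance of the keratin pair varied little among the TSN libraries. The ratio of KRT18 to KRT8 was 1.761, 1.788 and 2.147 in DMSO and 11.79, 11.05 and 11.89 in TSN. All TSN libraries held more KRT18 per KRT8 than any DMSO library, and TSN 3 did not stand apart in this ratio although it had the highest level of both genes in TSN.

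**Figure D2:**
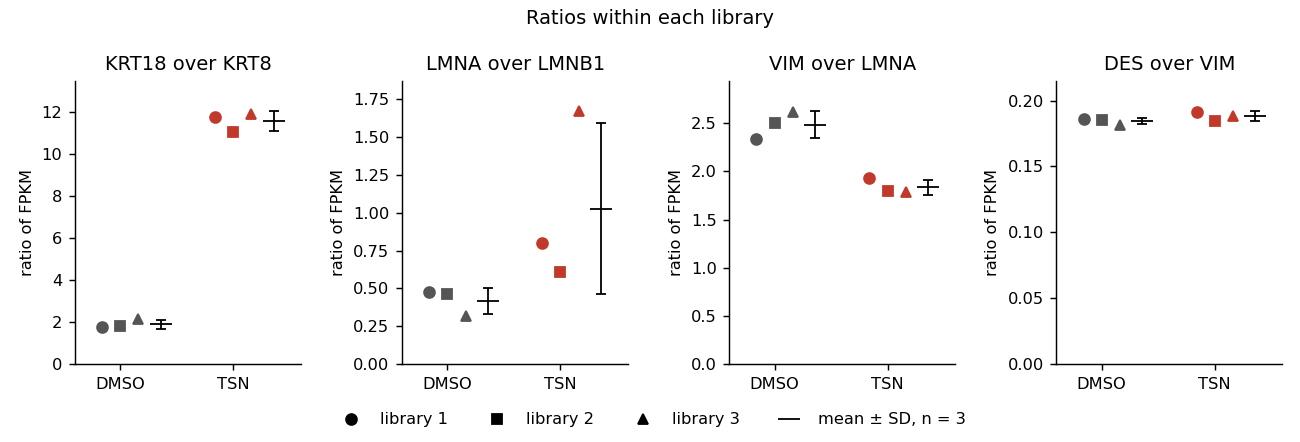
Ratios of FPKM within each library (vertical axes from 0) for KRT18 over KRT8, LMNA over LMNB1, VIM over LMNA, and DES over VIM; symbols are libraries and bars are mean ± SD of 3. The ratio of KRT18 to KRT8 is 1.76 to 2.15 in DMSO and 11.05 to 11.89 in TSN, and that of DES to VIM stays between 0.1815 and 0.1916 in all 6 libraries.

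Both keratins have many processed pseudogenes, copies made from their mRNA, which can take or lend fragments. The table held 17 KRT8 pseudogenes, whose levels summed to 2.828 to 4.836 FPKM per library, close to or above KRT8 itself. Only KRT8P12 on chromosome 3 reached 1 FPKM in at least 3 libraries, at 2.47, 3.042 and 1.599 FPKM in DMSO and 3.124, 2.748 and 3.185 FPKM in TSN. Its transcript matched the coding sequence of KRT8 at 86.1% of aligned bases, with an identical run of up to 53 bases. The 16 KRT18 pseudogenes summed to 0.7831 to 1.683 FPKM and none reached that level. The KRT8 values are therefore uncertain where the counting could split fragments between copies.

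KRT10, a keratin of the upper layers of skin, had no pattern by group. It stood at 11.55, 8.537 and 6.57 FPKM in DMSO and 6.75, 4.573 and 10.86 FPKM in TSN. The spread within each group was as wide as the distance between them, and TSN 3 lay within the DMSO range. The log2 fold change was -0.27 ± 0.32 (SE), a ratio of means of 0.83, and it was -0.01 without TSN 2 and -0.56 without TSN 3. KRT10 (ENSG00000186395) lies on chromosome 17 from 40818117 to 40822595 on the minus strand, and 2.6% of its exon bases are shared with a gene on the opposite strand.

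VIM was the most abundant of the 7 genes in every library but DMSO 3. Its levels were 124.9, 130.3 and 110 FPKM in DMSO and 210, 166.7 and 259.9 FPKM in TSN. All TSN libraries were higher than all DMSO libraries, with TSN 3 the highest. The ratio of means was 1.74 and the log2 fold change 0.78 ± 0.19 (SE). VIM (ENSG00000026025) lies on chromosome 10 from 17228259 to 17237593 on the plus strand, and 24.4% of its exon bases are shared with antisense genes. The antisense gene VIM-AS1 itself stood at 0.7009 to 1.743 FPKM with overlapping groups.

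DES, which encodes desmin, the filament protein of muscle, was listed at a steady share of VIM. It had 23.26, 24.16 and 19.97 FPKM in DMSO and 40.24, 30.73 and 49 FPKM in TSN, which is 0.1815 to 0.1916 of VIM in all 6 libraries. The coding sequences of VIM and DES matched at 73.5% of 982 aligned bases, with a longest identical run of 32 bases. Other muscle genes, chosen after their values were seen, were low: ACTA1 did not exceed 0.1658 FPKM, CKM 1.515 FPKM and TTN 0.2185 FPKM, and MYOG was listed at 0 in 5 of 6 libraries, while TNNT1 reached 2.598 FPKM in TSN 3. DES values are therefore uncertain beside VIM, and whether fragments were shared was not tested. The stretches below are the 60 aligned bases with the most matches, so they are more alike than the whole alignment. They are coding bases 294 to 353 of VIM and 309 to 368 of DES in GENCODE 29 transcripts. They share 58 of 60 bases, with the differing bases in capitals.
VIM: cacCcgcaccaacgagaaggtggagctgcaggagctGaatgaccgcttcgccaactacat
DES: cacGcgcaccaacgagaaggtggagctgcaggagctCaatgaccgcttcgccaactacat

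The lamins parted by type. LMNA was higher in TSN, whereas LMNB1 and LMNB2 overlapped between groups. The ends of the 3 coding sequences are shown because they carry the signal for the lipid tail, with the cysteine codon that receives it in capitals. The protein from the LMNA transcript shown loses this end when ZMPSTE24 cuts it, while the B-type lamins keep it. LMNA has 25 annotated transcripts, and its FPKM value does not separate them. The stretches are the last 30 coding bases of GENCODE 29 transcripts on GRCh38, at chr1:156138755-156139106 on the plus strand across an intron for LMNA, chr5:126836235-126836264 on the plus strand for LMNB1, and chr19:2430911-2430940 on the minus strand for LMNB2.
LMNA: cagagcccccagaacTGCagcatcatgtaa
LMNB1: gcatccaatagaagcTGTgcaattatgtaa
LMNB2: accacctcaagaggcTGCtacgtgatgtga

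LMNA (ENSG00000160789, chromosome 1, 156082573 to 156140089) stood at 53.41, 52.14 and 42.05 FPKM in DMSO and 109, 92.57 and 145.9 FPKM in TSN. Every TSN library was above every DMSO library. The ratio of means was 2.35 and the log2 fold change 1.20 ± 0.20 (SE), and it was 1.02 to 1.35 with any 1 library left out. No other annotated gene shares its exons.

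LMNB1 (ENSG00000113368, chromosome 5, 126776623 to 126837020), whose level is high in dividing cells, had 112.5, 113.1 and 132 FPKM in DMSO and 135.8, 152.6 and 87.36 FPKM in TSN. TSN 1 and TSN 2 lay above all DMSO libraries and TSN 3 below them. The log2 fold change was 0.04 ± 0.23 (SE), and its sign was not fixed: it was 0.27 without TSN 3, -0.12 without TSN 2 and -0.04 without TSN 1. LMNB2 (ENSG00000176619, chromosome 19, 2427638 to 2456996, minus strand) had 38.52, 38.45 and 39.71 FPKM in DMSO and 35.31, 40.54 and 26.15 FPKM in TSN. It was nearly level in DMSO, and TSN 3 was again the lowest library. Its log2 fold change was -0.21 ± 0.18 (SE), and 5.6% of its exon bases are shared with genes on the same strand.

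Within libraries, LMNA was higher relative to the B-type lamins in TSN. The ratio of LMNA to LMNB1 was 0.4748, 0.4609 and 0.3186 in DMSO and 0.8025, 0.6064 and 1.67 in TSN. The groups did not overlap, and TSN 3 was the only library with more LMNA than LMNB1 per length. The ratio of LMNA to LMNB1 and LMNB2 together was 0.2449 to 0.3537 in DMSO and 0.4792 to 1.286 in TSN. The ratio of VIM to LMNA was 2.338 to 2.616 in DMSO and 1.781 to 1.927 in TSN, so LMNA was the further apart of the pair.

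The 7 genes fell into 2 library patterns. KRT18, KRT8, KRT10, VIM and LMNA were highest in TSN 3 and lowest in TSN 2 within TSN, and lowest in DMSO 3 within DMSO, an arrangement shown by 25.5% of the tested genes. LMNB1 and LMNB2 had the mirror image, shown by 42.5% of the tested genes. Libraries also differed with exon length and GC content, with TSN 3 on one side and DMSO 3 and TSN 2 on the other. Over the longest of 3 equal groups of genes by exon length, the median deviation from a gene's mean was -0.45 in TSN 3, 0.24 in DMSO 3 and 0.22 in TSN 2 on the log2 scale, and over the lowest of 3 groups by GC content it was -0.46, 0.25 and 0.15. Their part in the filament values was not tested. LMNB1 lay at the 37.8 percentile of exon length and the 59.6 percentile of GC content, and LMNA at 74.7 and 90.2. LMNB2 lay at 60.2 and 89.9. The same percentiles were 73.7 and 75.1 for KRT8, 32.2 and 73.6 for KRT18, 18.9 and 62.6 for KRT10, and 57 and 45.7 for VIM. With each library's trend with length and GC content removed, an alternative added with earlier results known, the log2 fold changes were 1.56 for KRT18, 0.84 for VIM, 1.06 for LMNA, 0.01 for LMNB1, -0.37 for LMNB2, -0.57 for KRT8 and -0.37 for KRT10.

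**Figure D3:**
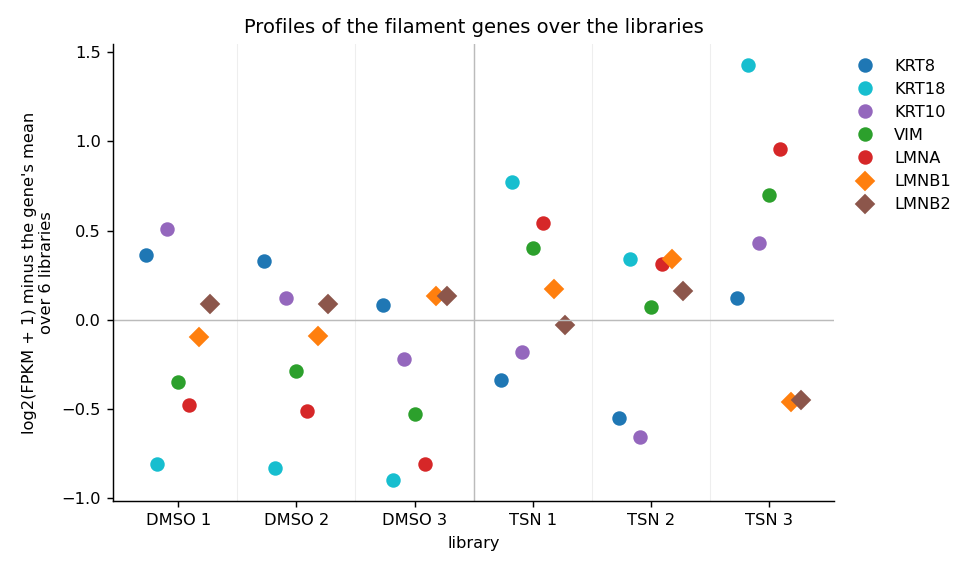
Level of each gene in each library as log2(FPKM + 1) minus the gene's mean over the 6 libraries (vertical axis); round points are keratins, VIM and LMNA, diamonds are B-type lamins. KRT18 runs from -0.90 in DMSO 3 to 1.43 in TSN 3, while LMNB1 and LMNB2 are lowest in TSN 3, at -0.46 and -0.45.

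Profiles were compared by the root mean square difference of centred log2(FPKM + 1) over the 6 libraries, where 0 is an identical profile. Among the 7 genes, LMNB1 and LMNB2 were closest (0.153), followed by KRT8 and KRT10 (0.219) and VIM and LMNA (0.22). KRT8 and KRT18 were 1.11 apart. Over 7306 other genes with a mean of at least 5 FPKM, KRT18 was nearest to UPP1 (0.0886), SDHAF1 (0.117) and STARD10 (0.117), with a median distance of 1.01 over all. That median was 0.757 for LMNA, 0.577 for VIM, 0.536 for KRT10, 0.463 for KRT8, 0.35 for LMNB1 and 0.308 for LMNB2. A flat profile was itself only 0.255 from LMNB1 and 0.21 from LMNB2, so small distances for these 2 genes say less. Genes near VIM included DES (0.0164) and the sugar transporter gene SLC50A1 (0.0398). LMNA was nearest to SPINT1 (0.0298), MIB2 (0.0438) and ATP6V1E1 (0.0474), a subunit of the proton pump of lysosomes. KRT8 was nearest to POLRMT (0.035), the mitochondrial RNA polymerase, ARMC6 (0.0364) and SRI (0.0386), and KRT10 to PPP1R16A (0.0702), B9D2 (0.0767) and MRPS21 (0.0797). The log2(FPKM + 1) scale shrinks changes of KRT8, at 1.262 to 3.25 FPKM, more than those of POLRMT, at 21.25 to 42.19 FPKM. Distances of KRT8 therefore depend on the added 1. LMNB1 was nearest to RPAP3 (0.0192), VAMP1 (0.0209) and TRIB2 (0.0281), and LMNB2 to CHKA (0.0334), KHSRP (0.0355) and RNF216 (0.0374).

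Promoter windows from RefSeq (GRCh38.p14, 250 bases before to 50 after a gene start) were matched for 6 of the 7 genes, all but KRT18, in 9 windows. Both strands were searched for a GC box (GGGCGG, in 45.0% of 35116 windows), an E-box (CACGTG, 7.3%), an AP-1 site (TGANTCA, 7.7%) and a TATA box (TATAAA, 11.5%). No position was shared between motifs. A GC box was in 6 of the 9 windows and an AP-1 site in 0. All 3 windows of LMNA were among those 6, so the count is of windows and not of separate genes. KRT10 had a TATA box at -29 from its start, and KRT8 had none of the motifs in its window. That window (chr12:52926420-52926719, minus strand) lies inside the span of KRT8, 52897187 to 52949954, which has 17 annotated transcripts. Other starts of KRT8 were not searched, nor were starts of the other genes outside their windows. VIM, for example, has 10 annotated transcripts. The windows of VIM (chr10:17227991-17228290, plus strand) and LMNA (chr1:156082631-156082930, plus strand, 1 of 3 windows) are shown as genes that were higher in TSN, and that of LMNB1 (chr5:126776886-126777185, plus strand, 1 of 2) as one that overlapped. Capitals mark GC boxes, at -46 in VIM and -44 in LMNA, and in LMNB1 4 GC boxes and an E-box at -122.
VIM: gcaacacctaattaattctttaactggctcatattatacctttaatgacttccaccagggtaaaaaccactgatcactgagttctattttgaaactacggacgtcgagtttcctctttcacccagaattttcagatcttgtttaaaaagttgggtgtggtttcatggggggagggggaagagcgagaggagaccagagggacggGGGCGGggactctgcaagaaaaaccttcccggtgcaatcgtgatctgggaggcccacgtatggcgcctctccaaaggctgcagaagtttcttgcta
LMNA: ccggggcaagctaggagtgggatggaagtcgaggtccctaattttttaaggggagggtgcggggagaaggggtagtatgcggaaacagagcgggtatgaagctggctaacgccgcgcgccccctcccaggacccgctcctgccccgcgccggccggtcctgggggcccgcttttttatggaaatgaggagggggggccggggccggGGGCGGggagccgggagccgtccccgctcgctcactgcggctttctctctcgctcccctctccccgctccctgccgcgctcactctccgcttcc
LMNB1: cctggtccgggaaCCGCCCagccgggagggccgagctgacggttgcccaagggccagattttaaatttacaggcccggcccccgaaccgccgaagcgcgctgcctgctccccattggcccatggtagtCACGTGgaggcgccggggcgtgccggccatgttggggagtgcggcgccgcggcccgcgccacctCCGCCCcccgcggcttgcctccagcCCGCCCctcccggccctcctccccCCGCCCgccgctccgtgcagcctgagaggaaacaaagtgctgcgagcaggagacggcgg
A match describes these letters only.

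Genes that work with the filaments were counted from lists chosen with earlier results known, each beside the share of all tested genes that passed, 7.71% higher and 7.2% lower. The median log2 fold change over all tested genes was -0.10. The values of each list depended on the libraries: with DMSO 1, DMSO 2, DMSO 3 or TSN 1 left out, 0 to 2 genes passed in any list, and with TSN 3 left out up to 7.

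Of 20 tested nuclear envelope partners, 1 was higher and 1 lower, with a median of -0.13. TOR1A, an ATPase of the space between the nuclear membranes, fell from 81.17 ± 1.76 FPKM in DMSO to 36.12 ± 5.71 in TSN, a log2 fold change of -1.16 ± 0.15 (SE, limma adjusted p = 0.00628), and all 3 TSN libraries lay below DMSO. TMEM38A, a cation channel of internal membranes, rose from 1.343 ± 0.0223 to 3.558 ± 0.298 FPKM (0.96 ± 0.12, limma adjusted p = 0.00582). The lamin B receptor gene LBR (-0.40 ± 0.26), emerin (EMD, 0.07 ± 0.17) and the linker gene SUN2 (0.00 ± 0.17) did not pass; these 3 were chosen after their values were seen. The count was 0 without DMSO 2, 1 without DMSO 1, 4 without TSN 2 and 3 without TSN 3.

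Of the 7 genes for the enzymes that add or trim the lipid tail of lamins, or bind it, 1 was higher and 1 lower. ZMPSTE24, the protease that matures the A-type lamin, fell from 38.01, 34.04 and 40.19 FPKM to 23.15, 22.64 and 16.15 FPKM (-0.84 ± 0.17 SE, limma adjusted p = 0.0262). All TSN libraries lay below all DMSO libraries. NARF, which binds the tail of prelamin A, rose from 28.25 ± 3.23 to 52.74 ± 12.6 FPKM (0.86 ± 0.20, limma adjusted p = 0.0362). Neither passed with DMSO 1, DMSO 2, DMSO 3 or TSN 1 left out. ICMT, which methylates the tail, stood at 33.38 ± 1.4 and 39.65 ± 3.66 FPKM and did not pass.

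Of 30 tested nucleoporins, the proteins of nuclear pores, 0 passed in limma and 4 had an unadjusted p under 0.05, with a median of -0.25. The most abundant, SEC13 (-0.04 ± 0.16) and NUP210 (0.42 ± 0.27), overlapped between groups. Without TSN 2 or TSN 3, 2 nucleoporins passed.

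Of 65 other intermediate filament genes listed, 23 had a row and 5 were tested, of which 2, DES and KRT79, were higher. DES is described above (0.78 ± 0.20, limma adjusted p = 0.0435). KRT79, a type II keratin, had 0.4241, 0.4411 and 0.2663 FPKM in DMSO and 1.205, 1.34 and 1.934 FPKM in TSN. It passed the level filter only through TSN, the group where it is high, so it had to differ and its call is not read as a result. KRT81, a hair keratin, had 13.23 ± 2.6 and 24.96 ± 11 FPKM and did not pass (0.81 ± 0.31, limma adjusted p = 0.138), and its coding sequence matched that of KRT86 at 96.6% of 1324 bases, so the 2 are uncertain. The other 18 genes were not tested, and the highest of them was PRPH at 3.163 FPKM in TSN 3. Without DMSO 1, DMSO 2, DMSO 3 or TSN 1, 0 of the 5 passed.

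Of 10 tested filament linkers and binders, 1 was higher. JUP, or plakoglobin, which ties filaments to cell contacts, rose from 36.35, 37.99 and 29.83 FPKM to 78.92, 68.56 and 95.44 FPKM (1.19 ± 0.17, limma adjusted p = 0.00895). The groups did not overlap. PLEC, or plectin, a linker of vimentin, had a log2 fold change of -0.28 ± 0.18. With DMSO 1, DMSO 2 or TSN 1 left out no gene passed in limma, and without TSN 2 the count was 2.

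Of 33 tested actin filament genes, 4 were higher and 0 lower, with a median of 0.44. ZYX, an adaptor of adhesion sites, had 2.186 ± 0.141 FPKM in DMSO and rose to 4.673 ± 0.221 FPKM in TSN (0.83 ± 0.13 SE, limma adjusted p = 0.00965). VASP, which extends actin filaments, rose from 38.04 ± 3.67 to 55.65 ± 2.55 FPKM (0.54 ± 0.13, limma adjusted p = 0.0374), and ACTG1 from 13.48, 11.34 and 11.28 to 17.31, 20.07 and 20.92 FPKM (0.65 ± 0.15, limma adjusted p = 0.0311). The fourth was CAPG, an end-capping protein. ACTB, at 2072 to 2699 FPKM, overlapped between groups. ACTG1 is uncertain beside ACTB, since the 2 actin proteins are near-identical. Their coding sequences were not compared here, and whether fragments were shared was not tested. The count was 0 with DMSO 1, DMSO 2, DMSO 3 or TSN 1 left out and 7 without TSN 3.

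Of 6 tested proteases that cut filaments, 2 were higher and 1 lower. Among those higher, the calpain gene CAPN1 rose from 73.23 ± 5.66 to 112.8 ± 3.06 FPKM (0.62 ± 0.12, limma adjusted p = 0.023). CASP6, the caspase known for cutting lamin A, fell from 13.2 ± 0.355 to 7.087 ± 1.49 FPKM (-0.83 ± 0.18, limma adjusted p = 0.0273). The count was 0 with DMSO 1, DMSO 2, DMSO 3 or TSN 1 left out and 5 without TSN 3.

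**Figure D4:**
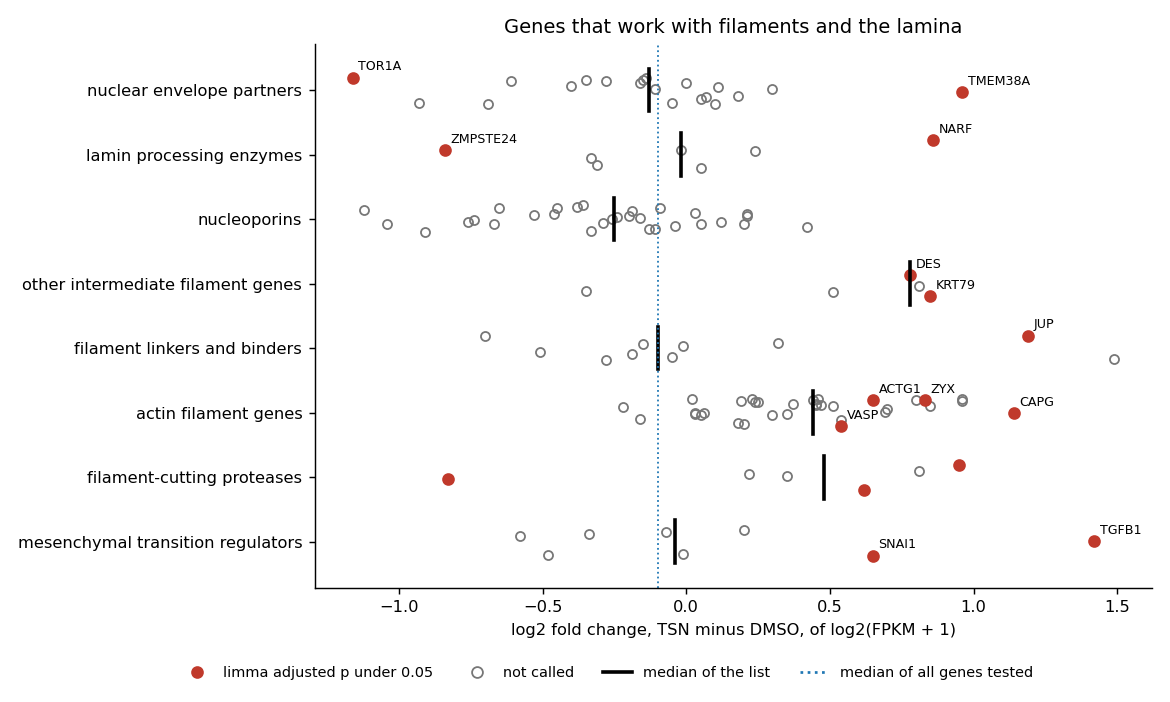
Log2 fold change, TSN minus DMSO, of every tested gene of 8 lists (horizontal axis, log2(FPKM + 1)); filled points passed a limma adjusted p of 0.05, bars are list medians, and the dotted line is the median of all tested genes. The actin filament list has a median of 0.44 and 4 filled points, the nucleoporins -0.25 and 0.

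Vimentin is also read as a marker of mesenchymal cells, and KRT8 and KRT18 of epithelial cells. Of 8 tested regulators of the transition between them, 2 were higher: TGFB1 rose from 26.96 ± 2.64 to 75.69 ± 23 FPKM (1.42 ± 0.23, limma adjusted p = 0.0126) and SNAI1 from 1.022 ± 0.166 to 2.166 ± 0.0822 FPKM (0.65 ± 0.12, limma adjusted p = 0.0187). SNAI1 reached 1 FPKM in 2 of the 3 DMSO libraries and in all 3 TSN libraries. Neither passed with DMSO 1, DMSO 2, DMSO 3 or TSN 1 left out. Among 14 epithelial markers, 11 had a row and 1 (EPCAM, at 3.219 to 3.975 FPKM) reached 1 FPKM in at least 3 libraries, and their sum was 4.342 to 5.305 FPKM in DMSO and 5.428 to 6.514 in TSN. CDH1, which encodes E-cadherin, was listed at 0 in all libraries but DMSO 1, at 0.0052 FPKM. None of the 8 fibroblast markers with a row reached 1 FPKM in 3 libraries, and their sums of 0.4058 to 0.7452 FPKM in DMSO and 0.5648 to 1.182 in TSN overlapped. Summed endothelial markers, mostly PECAM1, were 3.738 to 4.743 FPKM in DMSO and 5.166 to 7.825 in TSN. Summed lymphoid markers, mostly NKG7, were 27.29 to 33.98 and 84.4 to 215.5 FPKM, and summed myeloid markers, mostly MPO, 3601 to 3874 and 2232 to 2302 FPKM. The myeloid markers did not move as 1 group, by values looked at after the sum: MPO was lower (limma adjusted p = 0.0221), whereas the integrin genes ITGAM, from 3.242 ± 0.581 to 11.72 ± 2.81 FPKM (limma adjusted p = 0.00789), and ITGAX, from 2.118 ± 0.298 to 8.397 ± 2.82 FPKM (limma adjusted p = 0.0124), were higher. SPI1 and CSF1R were higher and CEBPA lower without overlap of the groups, and these 3 did not pass. The epithelial, endothelial, lymphoid and myeloid sums did not overlap between groups, and their part in the filament values was not tested. EPCAM, the largest part of the epithelial sum, overlapped between groups (limma adjusted p = 0.876). KRT7, itself a keratin gene, was also in that sum, at 0.3147 to 0.6771 FPKM in DMSO and 0.5982, 0.7782 and 2.428 FPKM in TSN 1, 2 and 3. The epithelial sum is therefore not separate from the keratins.

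**Figure D5:**
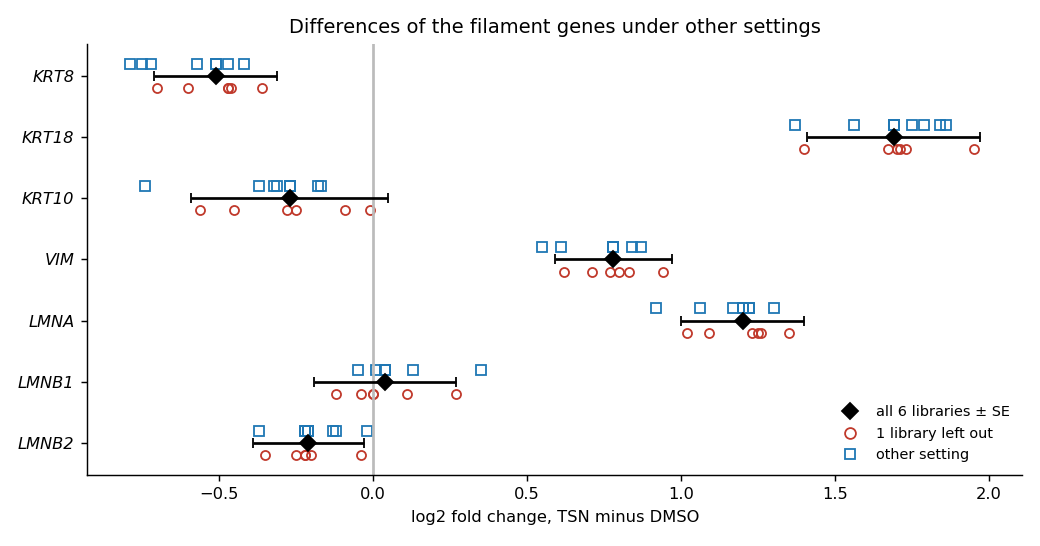
Log2 fold change, TSN minus DMSO, of the 7 genes (horizontal axis) with all libraries (diamonds, ± SE), with 1 library left out (circles) and under other settings (squares). KRT18 stays at 1.37 or above, VIM at 0.55 and LMNA at 0.92, and LMNB1 lies on both sides of 0.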

How the data were processed

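The authors deposited a table of FPKM values for 30741 genes in 6 libraries. The unit is not written there and was read from the values: for single-exon genes, 95.2% to 95.7% of low values were whole multiples of 1 step within 0.1, which gave the depth estimate. Per the submitters' processing notes, the authors worked on GRCh38 and with DESeq2 1.26.0. For the aligner, counter, strand setting and gene lengths, nothing is given in the sources used here.

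FPKM are not counts, so log2(FPKM + 1) was tested with limma 3.58.1 in R 4.3.3 (variance trend, robust moderation) on genes that reached 1 FPKM in 3 or more libraries, with Benjamini-Hochberg adjustment over 11440 genes. GENCODE 29 matched 93.7% of gene identifiers. Pandas 2.3.3, numpy 2.4.6 and matplotlib 3.10.9 in Python 3.11.15 were also used. The procedure was tested on simulated data with independent noise for each gene. Those data held no shifts shared by a whole library, so the test does not cover such shifts.

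The genes and lists were chosen with earlier results of these data known. All 7 filament genes were named. From each list, up to 3 higher and 3 lower called genes of lowest adjusted p were named, or the 2 of highest mean where none passed, and for each filament gene the 3 genes nearest in profile. CAPG, LBR, EMD, SUN2, ICMT, PLEC, KRT81, ACTB and the marker genes were named after their values were seen. A few items that this rule names are not reported here. DMSO 1 and DMSO 2, the closest libraries, differed by more than counting error (chi-square per degree of freedom 9.4) and were kept separate. Alternatives were no filter, a filter at a mean of 5 FPKM, pseudocounts of 0.1 and 0.01, median and quantile scaling, plain moderation, a replicate block, libraries left out, and removal of length and GC trends.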

Additional observations from a re-analysis of the deposited data

How the results depend on the processing

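KRT18, VIM and LMNA kept a positive log2 fold change under every alternative run, and KRT8, KRT10 and LMNB2 a negative one. With 1 library left out they ranged from 1.40 to 1.95 (KRT18), 0.62 to 0.94 (VIM), 1.02 to 1.35 (LMNA), -0.70 to -0.36 (KRT8), -0.56 to -0.01 (KRT10), -0.35 to -0.04 (LMNB2) and -0.12 to 0.27 (LMNB1). LMNB1 was -0.05 under quantile normalization. With DMSO 3 and TSN 3 both left out, LMNB1 was 0.35, LMNA 0.92 and KRT8 -0.79. KRT8 had no value under a mean filter of 5 FPKM.

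Counts of called genes moved far more. The count over all genes was 1706, and 259 to 2823 with 1 library left out, 777 without a filter, 1002 under a mean filter of 5 FPKM, 3299 without DMSO 3 and TSN 3, and 2949 with length and GC trends removed. The share of higher calls was 51.7%, and 43.6% with those trends removed, 67.3% without a filter, 73.9%, 78.4%, 64.4% and 67.8% without DMSO 1, DMSO 2, DMSO 3 and TSN 1, and 44.5% to 56.7% under the other alternatives that called any gene. With 1 library left out the lists ranged from 0 to 4 (nuclear envelope), 0 to 2 (lamin processing, nucleoporins, other filament genes, linkers and mesenchymal regulators), 0 to 7 (actin) and 0 to 5 (proteases). Where such a count was 0 in limma, 1 to 8 genes of the list had an unadjusted p under 0.05. Without a filter they gave 0 for lamin processing, other filament genes and proteases, with 2, 8 and 4 unadjusted, and 1 for actin and mesenchymal regulators. Under a mean filter of 5 FPKM they gave 1 for nuclear envelope, other filament genes and mesenchymal regulators and 2 for actin. Median scaling gave 1 for lamin processing and other filament genes, and quantile normalization 2 for linkers. Without DMSO 3 and TSN 3 they gave 6 (nuclear envelope), 3 (nucleoporins), 2 (linkers), 10 (actin) and 4 (mesenchymal). With trends removed they gave 4 (nuclear envelope, other filament genes and linkers) and 3 (nucleoporins). The causes were not tested.

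Same-numbered libraries deviated in opposite directions (r = -0.32, -0.65 and -0.83 over genes), which gave no sign of pairing by number. These deviations also carry the library trends with length and GC content, so they cannot decide whether the libraries were paired. With a replicate block, limma called 0 genes, with 2121 at an unadjusted p under 0.05, and 0 in each list, with 0 to 4 unadjusted. The block left the log2 fold changes of the 7 genes at 1.69, 0.78, 1.20, -0.51, -0.27, 0.04 and -0.21 for KRT18, VIM, LMNA, KRT8, KRT10, LMNB1 and LMNB2. Per kb of exon KRT8 had the fewest estimated fragments, 56 to 133, with KRT10 at 203 to 460 and KRT18 at 199 to 1171. How far depth limits their values was not tested.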
